A study of Caenorhabditis elegans with 4 samples.

Results

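Nuclear hormone receptors are transcription factors that bind DNA through a zinc finger domain and, in many cases, change their activity when a small lipophilic molecule occupies a second domain. C. elegans has far more genes of this kind than insects or vertebrates, most of which are thought to descend from a relative of vertebrate HNF4, and the ligands of most of them are unknown. Those with known roles act in fat and nutrient metabolism, molting, cell fate and sex determination. The genes described here are those with a symbol of the form nhr followed by a number, with 1 further gene of the name series left out by the rule, so that membership was set by name and not by a measured value. A RefSeq gene table holds 282 such names, of which 277 were measured on the arrays, among 20040 genes in all. The 277 comprise 265 protein-coding genes and 12 loci that RefSeq classes as pseudogenes, and they were represented by 339 transcripts with 3 probes each. The 5 names without a measured transcript were nhr-93, nhr-146, nhr-151, nhr-200 and nhr-291.

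RNA came from early embryos of the wild-type strain N2 with no treatment, released by bleach from gravid adults, in 4 samples from separate embryo preparations that also supplied chromatin. The sources differ on whether all of the RNA samples or only some were treated with DNase, so samples were not divided by it, and its part in differences between samples was not tested. The paper describes its embryo preparations as a mix of stages, given as an average, with no mix for single preparations. All 4 samples form 1 group, so no conditions are compared and no test between groups exists. Each value is a log2 intensity from a single-color array, with the SD over the 4 samples. The arrays give no detection call, and different probes bind with different efficiency, so an order of genes is an order of array signal and not strictly one of RNA abundance. In whole embryos, fewer cells with a transcript and less transcript per cell cannot be told apart. Whether probes of close relatives share signal was not tested, and values of members with near-identical copies are uncertain for that reason.

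Pearson's correlation across all genes ranged from 0.968 to 0.992 between pairs of samples, and the 3 pairs that include replicate 4 were the lowest. All 8 markers of maternal and early embryonic RNA, such as mex-5 and pie-1, lay between 12.89 and 15.47. The adult intestine genes vit-2, vit-5 and vit-6 lay between 6.03 and 7.57, and 3 adult cuticle genes between 5.03 and 6.60. Of 3 sperm genes, spe-9 was low at 6.45 ± 0.26, while spe-11, with values of 8.22, 8.31, 9.76 and 8.13, and fer-1, at 9.89 ± 0.33, exceeded the low reference defined below in all 4 samples, and fer-1 also the 4-fold mark.

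The family sat slightly low in the embryo and was spread widely. Its median was 7.30, 7.20, 7.04 and 7.03 in replicates 1 to 4, against 7.92, 7.92, 7.91 and 7.82 for all genes, so the family median was the lower one in every sample. Means of single members ran from 4.05 to 14.18, a span of 10.13 log2 units, and the SD between members was 2.62. The spread between members was thus much larger than that between samples, where the median member had an SD of 0.37. The 20 members with the highest means held 56.6% of the summed intensity of the family.

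A member was counted as well above the family median when it exceeded the median of its own sample by at least 2 log2 units, which is 4-fold, in each of the 4 samples. This held for 74 of the 277 members, or 26.7%, whereas 39.9% of all genes passed the same mark. The share in the family was therefore below the background of all genes. Of the 74, 46 exceeded the median by at least 8-fold in all 4 samples, and 17 by at least 32-fold. The shares of all genes at these higher marks are not given here, so these counts cannot be set against a background. A further 18 members reached the 4-fold mark in some samples but not in all.

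A low reference was taken from 1343 genes for serpentine receptors, the chemoreceptor proteins of mature sensory neurons. The 95th percentile of these genes was 7.46, 7.39, 7.66 and 7.99 in replicates 1 to 4. In all 4 samples, 103 members (37.2%) exceeded it, against 46.4% of all genes. These 103 had to include each of the 74, because the level lay at most 0.96 log2 units above the family median in any sample. The other 174 members did not exceed that level throughout. At the lower end, 125 members (45.1%) were below the family median in every sample, and so were 37.2% of all genes. The share of members is tied to the median being their own, so these shares cannot be set against each other. In every sample, 22 of the 277 members were lower than the family median by at least 2 log2 units, when 6.45% of all genes were. The lowest means were those of nhr-282 at 4.05 ± 0.32, nhr-216 at 4.07 ± 0.47, nhr-261 at 4.20 ± 0.33 and nhr-233 at 4.25 ± 0.34 (SD, n = 4 for each).

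**Figure D1:**
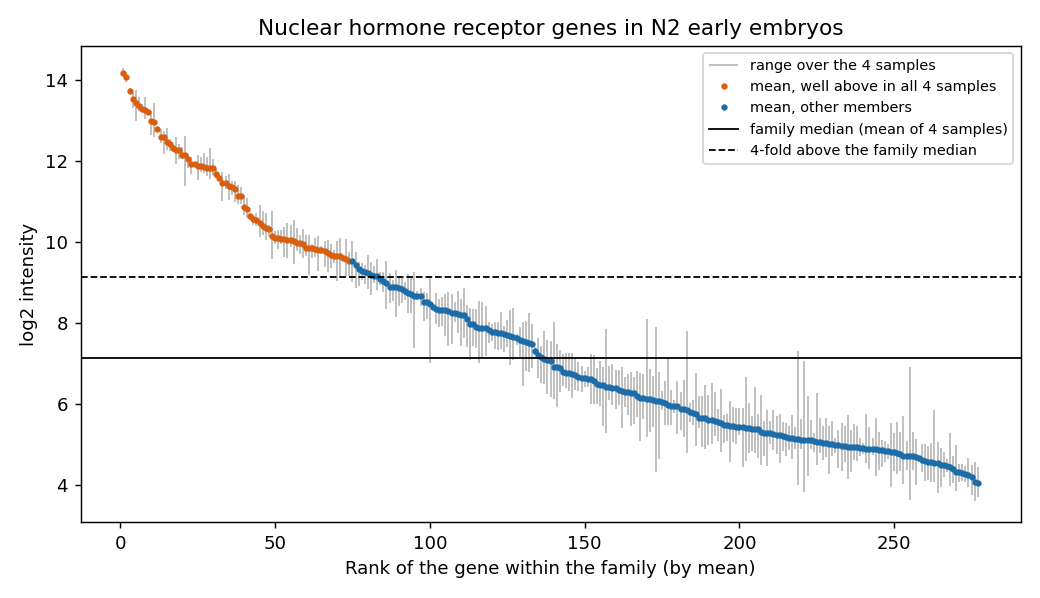
Mean log2 intensity of the 277 nuclear hormone receptor genes, ordered by mean, with thin lines for the range over the 4 samples. The levels fell without a gap from 14.18 to 4.05, and the 74 members that were well above the family median in all 4 samples are orange.

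The highest member was nhr-2 (C32F10.6, chromosome I), which is known for RNA that is supplied by the mother and made early in the zygote, and which is needed for embryonic development. Its values were 14.13, 14.31, 14.08 and 14.19, with a mean of 14.18 ± 0.10 (SD, n = 4) that was 131-fold above the family median. Among all 20040 genes it ranked 1224. The values of nhr-66 (T09A12.4, chromosome IV), which acts with nhr-49 in control of lipid genes, were 14.03, 14.20, 14.15 and 13.96, with a mean of 14.09 ± 0.11. The ranges of nhr-2 and nhr-66 overlapped, and nhr-2 was the higher in 3 of 4 samples. The values of nhr-20 (F43C1.4, chromosome III) were 13.81, 13.73, 13.69 and 13.73, all below those of nhr-66. With an SD of 0.05 nhr-20 was among the steadiest of the high members.

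Between neighbors in the order, most differences were not resolved by the ranges. Of the 19 neighboring pairs among the 20 highest members, 17 had overlapping ranges. The exceptions were nhr-66 over nhr-20 and, by a margin within rounding, nhr-20 over nhr-256. Of the overlapping pairs, nhr-71 over nhr-10 and nhr-13 over nhr-70 kept their order in all 4 samples. Genes further apart could be separate: the lowest sample of nhr-256, at 13.31, was above the highest of nhr-57, at 12.36. The mean of nhr-256 was 13.54 ± 0.18. The means of nhr-35, nhr-122 and nhr-71 were 13.37 ± 0.16, 13.28 ± 0.09 and 13.22 ± 0.05. Of the 20, nhr-13 varied least, with values of 12.80, 12.79, 12.77 and 12.83. The remaining members of the 20 outside the groups described next were nhr-70 at 12.60 ± 0.16, nhr-69 at 12.48 ± 0.25, nhr-4 at 12.33 ± 0.07 and nhr-34 at 12.27 ± 0.19. When all genes were ranked into 5 equal bins by mean, 11 members, from nhr-2 down to nhr-67, fell in the highest bin and 70 in the lowest.

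**Figure D2:**
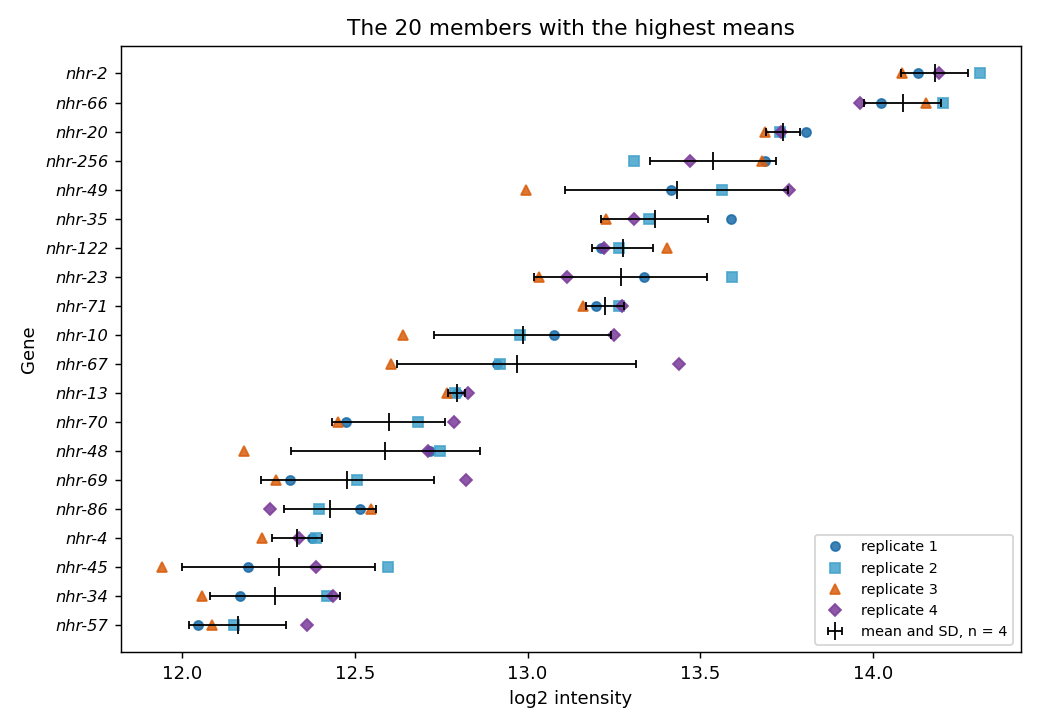
Log2 intensity of the 20 nuclear hormone receptor genes with the highest means, with 1 symbol per replicate and the mean and SD in black. The ranges of neighboring genes overlapped in 17 of 19 pairs, and replicate 3 was the lowest sample for 15 of the 20 genes.

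Near the mark, the members just inside it by their lowest sample were nhr-133 (2.14 log2 units above the median in that sample), nhr-21 (2.13), nhr-56 (2.13) and nhr-137 (2.00). Those just outside were nhr-65 (1.98), nhr-230 (1.98), nhr-8 (1.94) and nhr-60 (1.90). These 8 excesses lay closer together than the SD over samples of most of the 8 genes, so the mark does not separate those inside from those outside beyond their spread. The levels of the family ran through the mark without a step, as the plot of all members by rank shows.

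Among 10 members with close relatives in insects or vertebrates, the levels ranged over most of the span of the family. Well above the median were nhr-23, nhr-67, nhr-48 and nhr-91, so 4 of 10 passed, a share near the 39.9% of all genes. The median of the 10 was 9.14, against 7.06 for the family and 7.82 for all genes. The values of nhr-23, the relative of the ROR receptors that drives molting and epidermal development, were 13.34, 13.59, 13.03 and 13.12. Those of nhr-67, the relative of Tailless with roles in the anchor cell and in neurons, were 12.91, 12.92, 12.60 and 13.44. Both were thus in the upper group in every sample, and the highest sample was a different one for each. For nhr-48, a relative of the vitamin D receptor, the values were 12.72, 12.75, 12.18 and 12.71, with replicate 3 apart from 3 nearly equal samples.

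The mean of nhr-91, a relative of the germ cell nuclear factor, was 10.34 ± 0.32. The intermediate genes included nhr-8, which acts in sterol metabolism, at 9.28 ± 0.21, and nhr-6, the NR4A relative required in the spermatheca, at 8.80 ± 0.19. A further one, nhr-41, a relative of Drosophila Hr78, had values of 9.54, 9.09, 8.35 and 9.02. All 3 exceeded the serpentine receptor level in each sample. In contrast, nhr-85, the relative of Rev-erb and E75, had a mean of 6.79 ± 0.33, and nhr-239 a mean of 4.48 ± 0.13, neither of which exceeded that level throughout. The values of nhr-111 were 5.65, 5.19, 5.62 and 8.11, so its mean of 6.14 ± 1.33 rests on 1 high sample.

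Members with known roles in metabolism and stress responses were mostly in the upper group. Of 16 such genes, 14 were well above the family median, beside 26.7% of the family and 39.9% of all genes, and their median was 11.99. The list was drawn up by known function, with earlier results of these data known, and studied members carry low numbers, a property that itself went with level, as described below. The values of nhr-49, the HNF4-related regulator of fat desaturation and fatty acid oxidation, were 13.41, 13.56, 12.99 and 13.76. Its partners in lipid control differed among themselves: nhr-66 and nhr-13 had the means 14.09 and 12.80 given above, while nhr-80, which regulates fatty acid desaturases, had values of 8.79, 8.53, 7.75 and 7.85. The range of nhr-80 lay wholly below those of the other 3.

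The 2 receptors of the propionate shunt, an alternative route of propionate breakdown used when vitamin B12 is scarce, were both high. The values of nhr-10 were 13.08, 12.98, 12.64 and 13.25, and those of nhr-68 were 11.82, 12.18, 12.12 and 12.06. Every sample of nhr-10 was above every sample of nhr-68. The gene nhr-114, which protects the germ line under certain diets, was lower at 9.96 ± 0.28.

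Of the other members of the list, nhr-86, known for a role in intestinal immunity, had a mean of 12.43 ± 0.13, nhr-45 one of 12.28 ± 0.28 and nhr-57, a gene induced by hypoxia in later stages, one of 12.16 ± 0.14. Next were nhr-64 at 11.93 ± 0.18, nhr-62, which acts in lifespan under dietary restriction, at 10.88 ± 0.23, and nhr-79 at 10.54 ± 0.14. The lowest that still passed the mark were nhr-28 at 10.10 ± 0.19 and nhr-76, which acts in control of body fat by serotonin, at 9.79 ± 0.28. The 2 that did not pass it were nhr-80 and nhr-14, a regulator of intestinal iron uptake, whose values were 8.88, 8.89, 7.03 and 9.13. In replicate 3, nhr-14 was at the family median, and in the other 3 samples above it by more than 1 log2 unit.

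Of 7 members with known roles in development, 4 were well above the family median, with a list median of 9.81, beside 26.7% of the family and 39.9% of all genes. They were nhr-2, nhr-23 and nhr-67, given above, and nhr-40, which acts in muscle development, at 9.81 ± 0.38. The values of nhr-60, which acts in the epidermal seam cells, were 9.52, 9.46, 8.93 and 9.46, and it missed the mark through replicate 3. The other 2 were nhr-6 and nhr-85.

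The nuclear receptors that carry other names were not members and are given for comparison. The highest was sex-1, a receptor that takes part in counting X chromosomes in the early embryo, at 14.63 ± 0.16, which was above nhr-2 in each of the 4 samples. The dafachronic acid receptor daf-12 had a mean of 8.51 ± 0.56, and fax-1, unc-55 and odr-7, which specify neurons, had means of 8.04 ± 0.55, 5.70 ± 0.39 and 4.81 ± 0.65. Hence 1 of 5 passed the 4-fold mark.

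Genes for proteins that act with receptors differed in RNA signal. The 3 coregulators were high, with means of 14.93 ± 0.26 for cbp-1, the acetyltransferase related to CBP and p300, of 14.04 ± 0.31 for mdt-15, the Mediator subunit that binds nhr-49, and of 13.37 ± 0.44 for din-1, a corepressor of daf-12. The reductase gene emb-8, whose product supplies electrons to cytochrome P450 enzymes, had a mean of 13.54 ± 0.12. Of the dedicated genes of dafachronic acid synthesis, 3 were low, with means of 6.60 ± 0.70 for daf-36, 5.25 ± 0.91 for hsd-1 and 4.62 ± 0.60 for daf-9, none above the serpentine receptor level in all samples. The values of dhs-16, another gene of this route, were 8.53, 8.59, 5.72 and 8.42, which is above that level in 3 of 4 samples.

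Genes known in larvae or adults as targets of members also differed. Of 7, 3 were well above the family median (42.9%), a share near the 39.9% of all genes. These were acdh-1 at 12.40 ± 0.42 and hphd-1 at 11.99 ± 0.21, both enzymes of the propionate shunt under nhr-10 and nhr-68, and the flavin monooxygenase gene fmo-2 at 9.88 ± 0.30. The desaturase genes fat-5, fat-6 and fat-7 had means of 7.83 ± 0.40, 6.90 ± 0.52 and 6.46 ± 0.24, and acs-2, a fatty acid oxidation gene under nhr-49, had a mean of 7.13 ± 0.65. So acdh-1 and hphd-1, the only shunt enzymes looked at, were high, and so were nhr-10 and nhr-68. Of the receptors tied to lipid genes, nhr-49, nhr-66 and nhr-13 were high and nhr-80 was not, and the desaturase genes were not well above the family median, with fat-5 close to the median of 7.82 over all genes. Whether a receptor was active was not measured.

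The members are distributed very unevenly over the genome. Chromosome V carries 172 of the 277, of which 34 were well above the median (19.8%), with a median of 6.71. All genes of chromosome V were also low, with 24.0% past the same mark and a median of 6.02. Outside chromosome V, 40 of 105 members were well above (38.1%), with a median of 8.23, against 45.6% and a median of 8.74 for all genes placed there.

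The order of chromosomes for the family differed from that for all genes. On X, 12 of 23 members passed the mark (52.2%) with a median of 9.66, against 35.6% and a median of 7.50 for all X genes. On IV, 15 of 33 did so (45.5%) with a median of 9.23, against 39.1% and 7.83. On I, by contrast, only 6 of 25 did so (24.0%) with a median of 6.04, although 54.8% of all genes of that chromosome passed and their median was 10.56. Chromosome I nevertheless held nhr-2, nhr-49, nhr-23 and nhr-69. Chromosomes II and III held 16 and 8 members, of which 5 (31.2%) and 2 passed the mark, against 42.8% and 57.7% of all genes there.

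**Figure D3:**
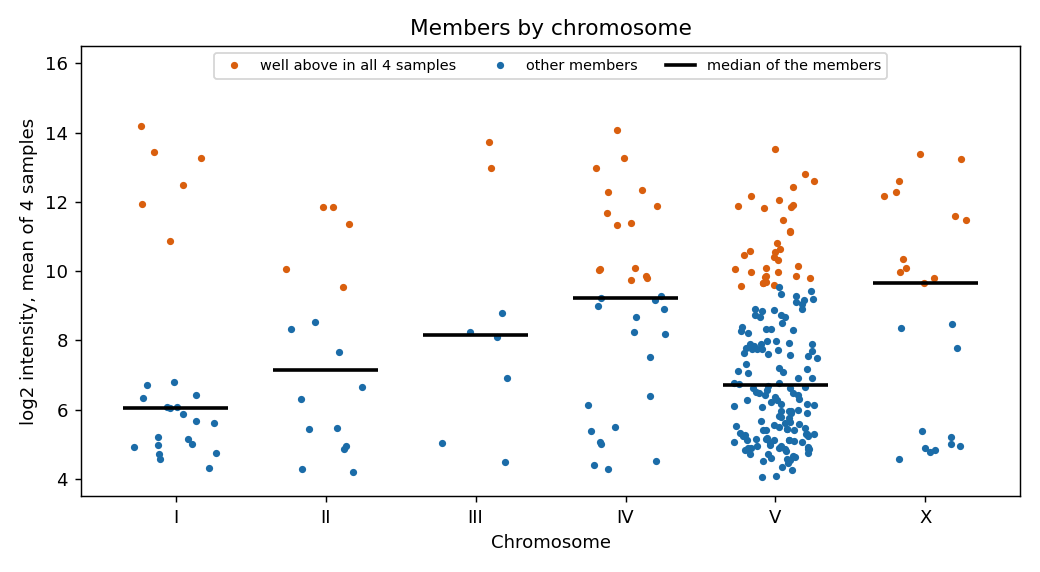
Mean log2 intensity of each nuclear hormone receptor gene by chromosome, with a bar at the median of the members. The medians were 6.04 on I, 7.15 on II, 8.17 on III, 9.23 on IV, 6.71 on V and 9.66 on X, and chromosome I shows a few high members above a large low group.

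The number in a gene name, which mostly follows the order in which members were identified, ran with level. Among members numbered up to 100, 50 of 95 were well above the family median (52.6%), with a median of 9.69. Among those with higher numbers, 24 of 182 were (13.2%), with a median of 6.15. Of all genes, 39.9% passed the same mark. In steps of 50 numbers the median fell from 10.07 to 9.18, 7.91, 6.41, 5.90 and 5.13. Within chromosome V the counts were 15 of 36 for the low numbers and 19 of 136 for the higher ones, and on the other chromosomes they were 35 of 59 and 5 of 46, so the difference was seen in both parts of the genome. Among members with numbers above 200, 8 were well above the median: nhr-256 and, at lower levels, nhr-201, nhr-204, nhr-221, nhr-232, nhr-237, nhr-243 and nhr-274.

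**Figure D4:**
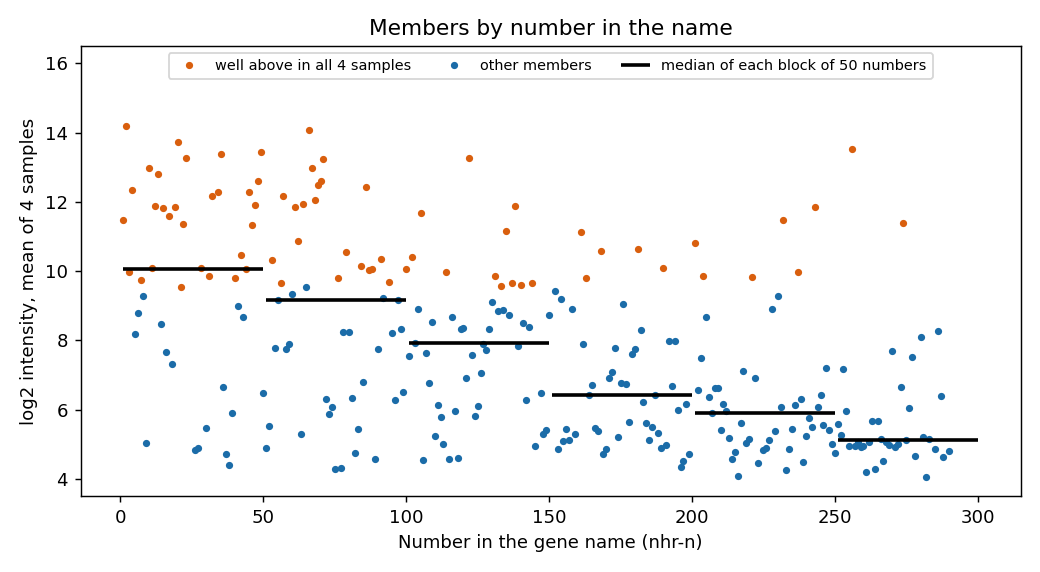
Mean log2 intensity of each nuclear hormone receptor gene against the number in its name, with a bar at the median of each block of 50 numbers. The block medians fell from 10.07 to 5.13, and nhr-256 at 13.54 stands far above the others of its block.

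The pseudogene class was low. Of 12, only nhr-144 was well above the median, at 9.67 ± 0.14, and the median of the class was 5.16, against 7.22 for the 265 protein-coding members. One of its 2 transcripts measured 10.97 and the other 8.37. The next pseudogene was nhr-194 at 7.98 ± 0.61.

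Many members lie side by side on a chromosome, as duplicated genes do. In the order of RefSeq genes, 134 of the 277 stood in 44 runs of adjacent members, and 143 stood alone. Members in runs had a median of 6.54, with 21 of 134 well above the family median. Those standing alone had a median of 7.98, with 53 of 143, beside 39.9% of all genes. Chromosome V held 71 of the 90 pairs of neighbors, and only 19.8% of its members passed the mark. The contrast between runs and single members was not made within V, so the part of the chromosome in it was not tested. The longest run, on chromosome V, held nhr-186, nhr-188, nhr-189, nhr-187, nhr-157, nhr-158, nhr-159 and nhr-124, of which none passed the mark. Another run on V, of 7 genes, held 4 that did: nhr-161 at 11.14 ± 0.17, nhr-42 at 10.47 ± 0.34, nhr-163 at 9.81 ± 0.11 and nhr-140 at 9.60 ± 0.06.

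The median difference over the 90 adjacent pairs was 1.14, against 2.53 over all pairs of members. Since members in runs were lower as a group, the closer comparison is with pairs of run members from different runs, for which it was 1.97. On chromosome V the same medians were 1.27 for 71 adjacent pairs and 1.96 for pairs from different runs. These are descriptions, and no test was made. Shared probe signal between neighbors was not tested. Adjacent genes could nonetheless differ strongly, as did nhr-122 at 13.28 and nhr-287 at 6.40, nhr-53 at 10.33 and nhr-199 at 4.73, and nhr-44 at 10.06 and nhr-219 at 5.04. Both genes of a pair were well above the median in 2 pairs, 1 of them in 20 and neither in 68.

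For 43 members the arrays held more than 1 transcript, up to 6, and a gene value is the mean of its transcripts on the log2 scale. The median span between transcripts of a gene was 0.57, but it exceeded 1 in 19 genes and 2 in 10. The widest was nhr-46, whose transcripts a, b and c measured 12.91, 7.10 and 13.96. By its mean of 11.32 nhr-46 ranked 37 in the family, and by its highest transcript it ranked 3, after nhr-2 and nhr-66. In nhr-21, transcript b measured 4.83 and the other 4 between 10.65 and 10.79, and in nhr-56 the transcripts measured 11.65 and 7.66. The 2 transcripts of nhr-91 measured 12.06 and 8.63. Taken by the highest transcript, 3 further members (nhr-65, nhr-97 and nhr-228) were well above the median and 0 were lost, and 18 of the 20 highest members were the same. Transcripts and their probes cannot be told apart in these differences.

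Side by side with other transcription factor families, the receptors were lower than the homeobox and T-box genes and near the basic helix-loop-helix genes. Of 64 homeobox genes with ceh names, 37 passed the same mark (57.8%), with a median of 10.26. Of 19 T-box genes 12 did (63.2%), with a median of 11.04. Of 25 basic helix-loop-helix genes 7 did (28%), with a median of 6.38. Only 9 of the 1343 serpentine receptor genes did (0.67%), with a median of 4.94. The share was 26.7% for the nuclear receptors, whose median was 7.06, and 39.9% for all genes. These families were set beside the receptors as a description and without a test.

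Of the gene classes that the study defined, 3 were compared by name. Members made up 0 of 168 measured germline-specific genes, 1 of 323 soma-specific genes and 0 of 207 genes that combine strong MES-4 and H3K36me3 signal with little Pol II, when they made up 1.38% of all measured genes. These counts are too small to be read against that share, and no test was made. The 1 soma-specific member was nhr-154, at 9.18 ± 0.38. The other classes of the study were not used here.

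The 74 members well above the family median varied less between samples than the other members. The median SD was 0.20 for the 74 and 0.43 for the other members, and 0.35 for all genes. Passing in each of the 4 samples itself favors a small SD, so this contrast is partly set by the choice of the 74. The largest SDs were 1.49 for nhr-283, 1.48 for nhr-199, 1.47 for nhr-231 and 1.38 for nhr-185, all with means of 6.09 or less. The values of nhr-283 were 4.83, 4.41, 4.01 and 7.31, those of nhr-199 were 3.64, 4.36, 4.01 and 6.92, and those of nhr-185 were 4.86, 3.84, 4.70 and 7.07. All 3 were thus highest in replicate 4, whereas nhr-231 was highest in replicate 3, at 7.90 against 6.27, 4.33 and 5.84. Replicate 4 also had the highest serpentine receptor level, at 7.99. Its part in these values was not tested.

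Replicate 3 was the lowest sample for 15 of the 20 highest members and for 30 of the 74 (40.5%), against 30.8% of all genes that passed the same mark. It was also the highest sample for 24 of the 74, more than any other replicate, and 7 of the 74 lay at least 0.5 log2 units below and 7 as far above the mean of the other samples there. Replicate 3 thus departed in both directions. By at least 1 log2 unit, 8 members (2.89%) were low in replicate 3 and 7 (2.53%) were high, against 4.82% and 3.41% of all genes. In replicate 4, 15 members (5.42%) were low by as much and 15 high, against 5.93% and 9.43% of all genes. The low members of replicate 3 were led by nhr-14 and by nhr-43, whose values were 9.26, 9.13, 7.38 and 8.94. Among the 74, this held only for nhr-32, with values of 12.21, 12.42, 11.38 and 12.62. Genes of differentiated muscle and gut were low in the same sample. The 3 sperm genes differed in it, with departures from the mean of the other samples of 1.54 log2 units for spe-11, 0.41 for fer-1 and -0.27 for spe-9. The values were 10.87, 10.37, 8.87 and 10.11 for the muscle myosin gene unc-54, 9.75, 9.50, 7.72 and 9.20 for the paramyosin gene unc-15, and 9.11, 9.40, 7.86 and 9.26 for the gut esterase gene ges-1. A further muscle myosin gene, myo-3, was low in replicates 3 and 4, with values of 8.51, 8.26, 6.19 and 6.26. The gut regulator elt-2 had values of 11.10, 11.46, 11.06 and 11.53, so of these 5 markers 4 had a replicate 3 value at least 1 log2 unit below the mean of the other samples. Their part in the values of the members was not tested.

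**Figure D5:**
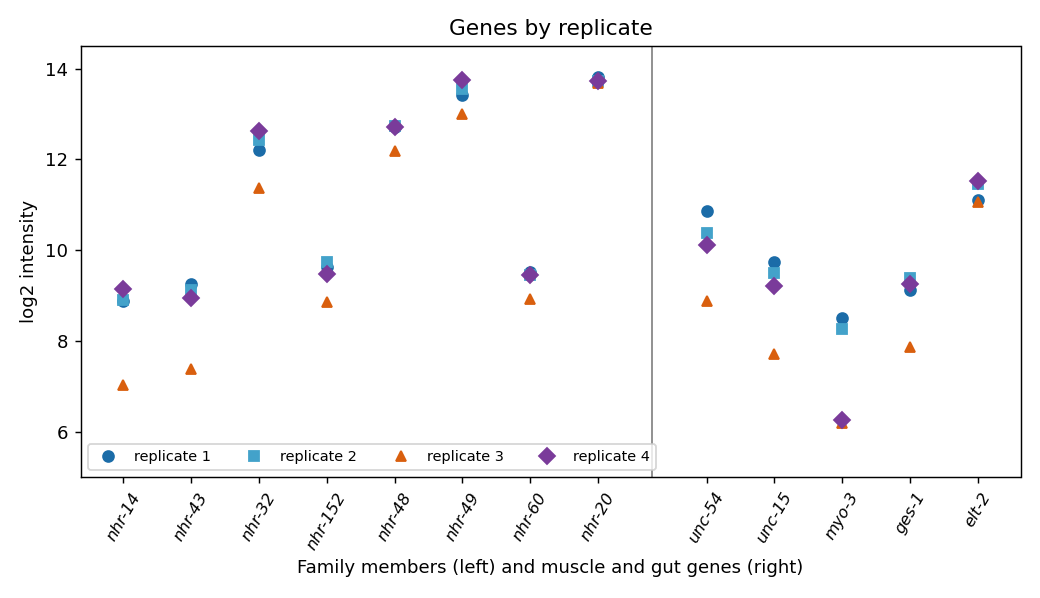
Log2 intensity in each replicate for 8 nuclear hormone receptor genes (left) and 5 muscle and gut genes (right), chosen after their values were seen. Replicate 3 lay below the other samples for nhr-14, nhr-43, nhr-32, nhr-152, nhr-48, nhr-49 and nhr-60 and for unc-54, unc-15 and ges-1, while the 4 samples of nhr-20 lay within 0.12 log2 units.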

How the data were processed

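RNA of 4 N2 early embryo samples was measured on single-color NimbleGen arrays with 3 probes for each of the members' transcripts. Arrays were quantile normalized and probes combined by RMA by the authors, who deposited linear intensities. For the software version, gene annotation and genome build, no statement was found in the paper, labels or headers (not given in the sources used here). Of 92720 values, 0 differed between the per-sample tables and the series table. Log2 was taken without a pseudocount, a filter or further normalization, and the 23180 transcripts were averaged to 20040 genes by sequence name. Of these, 19380 matched a RefSeq table (WBcel235), used for symbols, gene class, chromosome and gene order, and 660 did not.

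With 1 group, all results are descriptions, and precision is set by the number of arrays. The members and gene lists were chosen with earlier results of these data known. Genes named are the 20 highest members, the 4 just inside and outside the 4-fold mark, the 4 lowest, the 4 with the largest SD and all genes of 6 lists. Others, such as nhr-32, nhr-43, nhr-46, nhr-144, those of neighbor runs and those with high numbers, were named after their values were seen. Counting was tested on simulated data with discrete levels and a common SD, unlike the continuous levels of the family. That test checks the counting only. Alternatives were each replicate left out, other thresholds and references, the highest transcript, a linear mean, equal sample medians and the series table. Protein domains and sequences were not analysed here. Calculations ran in Python 3.11.15 (numpy 2.4.6, pandas 2.3.3), and plots in matplotlib 3.10.9.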

Additional observations from a re-analysis of the deposited data

Results flagged for a closer look

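In 14 of the 117 named genes, 1 of the 4 samples stood apart from the others by Dixon's ratio, the gap to the nearest sample divided by the whole range of the gene, at its 95% critical value for 4 samples. Chance flags about 1 gene in 20 in this way. Some of the 117 were named after their values were seen or for a large SD, so their count cannot be read against that rate. The ratio was 0.940 for nhr-48, 0.900 for nhr-60, 0.881 for nhr-14, 0.830 for nhr-43, 0.908 for daf-12, 0.872 for cbp-1 and 0.943 for dhs-16, and in all 7 the low sample was replicate 3. In fmo-2 (0.920) the low sample was replicate 4. The high sample was replicate 4 in nhr-111 (0.843) and odr-7 (0.934), replicate 1 in nhr-189 (0.892), and replicate 3 in nhr-157 (0.884), spe-11 (0.889) and nhr-243 (0.840), whose values were 11.78, 11.75, 12.19 and 11.70. Among those low in replicate 3, the departures differed widely in size, from a difference of -0.52 log2 units from the mean of the other samples in cbp-1 to -2.79 in dhs-16. Over the whole family, which was set by name, 15 of the 277 members passed this critical value, a share near the chance rate.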

How the results depend on the processing

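Leaving out a replicate can only keep or add members, because a member must pass in every remaining sample. The count of 74 members well above the family median was 74 to 77 when each replicate was left out. It was 46 at 8-fold and 99 at 2-fold, 83 by the mean alone, 77 by the highest transcript or a linear mean, and 53 against the median over transcripts. The 103 members above the serpentine receptor level became 103 to 118 with replicates left out, which again could only add members. The number was 128 at the 90th percentile and 65 at the 99th. Shares of all genes are not given for these other settings. The family median of 7.06 ranged from 6.96 to 7.10 with replicates left out. Equal sample medians shift the genes and the references of a sample alike, and the series table held the same values, so neither could change a count. Of 117 named gene values, 15 moved by more than their SD under the highest transcript. With a replicate left out 0 did, but this count was certain beforehand and says nothing about stability. Dropping 1 of so few samples cannot move a mean by as much as the SD over samples. The mean of dhs-16, for example, went from 7.82 to 8.51 without replicate 3, against an SD of 1.40. No paired analysis was possible because all samples belong to 1 group. Since the arrays came without a background or detection call, a low member cannot be called absent.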
